A study of Mus musculus with 4 samples.

Results

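Binding of the LIM-homeodomain transcription factor Isl1 was examined around 10 genes of retinoic acid signalling in the embryonic genital tubercle, the outgrowth that becomes the penis or the clitoris. The genes were the nuclear receptors Rara, Rarb, Rarg and Rxra, the enzymes that make retinoic acid Rdh10, Aldh1a2 and Aldh1a3, the enzymes that degrade it Cyp26a1 and Cyp26b1, and the cytoplasmic binding protein Crabp1. They were chosen by name, and all 10 were found among 21883 protein-coding genes of the RefSeq table. Every Isl1 peak whose midpoint lay in one of these genes or within 500 kb of it was taken. Chromatin came from whole tubercles of wildtype CD1 mouse embryos at E14.5 (embryonic day), in 2 Isl1 ChIP-seq replicates made with a rabbit monoclonal antibody against ISL1. The 2 input DNA samples of the same tissue came without a peak list and are not analysed here. The number of embryos behind each sample, and their sex, are not stated in the labels, so agreement between replicates may be technical. Whole tissue was used, so a peak cannot be tied to a cell type.

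Retinoic acid is a small hormone-like molecule made from vitamin A. Rdh10 oxidises retinol to retinaldehyde, the Aldh1a enzymes oxidise retinaldehyde to retinoic acid, and the Cyp26 enzymes hydroxylate it for removal. Retinoic acid binds a retinoic acid receptor (Rar), which pairs with a retinoid X receptor (Rxr) on DNA elements built of direct repeats of a short motif, and mouse embryos that lack combinations of these receptors have malformed genital and urinary tracts.

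The sequences that the peaks could be set against were RefSeq promoter windows of build GRCm38.p6, which run from 250 bases before a listed transcription start site to 50 after it. The windows of Rarb and Cyp26a1 are shown first, since they were the 2 of the 13 windows of these genes that held a direct repeat of the receptor motif, searched on both strands as any pair of motifs in the same orientation with 5 bases between them. The motif was spelled AGGTCA. Accepted variants of it were the spelling AGTTCA, a form with the letters GGGTCA, and a form with the letters GGTTCA. Such a repeat was found in 0.0974% of all 32851 promoter windows of the table. The repeat of Rarb is a known element built of the accepted spellings GGTTCA and AGTTCA, so its match was set by the choice of motifs. That of Cyp26a1 is built of the accepted spelling AGTTCA alone, so neither match is independent of that choice. Each line ends at the last base of the repeat, 5′ to 3′ on the strand of the gene, and capitals mark the repeat and, in Cyp26a1, a match on the opposite strand to TAATTG, a homeodomain core of the kind that Isl1 binds.

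Rarb, chr14:16575513-16575542, minus strand: gcagcccgggaagGGTTCACCGAAAGTTCA

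Cyp26a1, chr19:37697763-37697792, plus strand: ccgCAATTAaagaTGAACTTTGGGTGAACT

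In Rarb the repeat lay 53 to 37 bases before the start site and read forward, and in Cyp26a1 it lay 32 to 16 bases before the start site and read on the opposite strand. Neither repeat lay in a peak of either list. Windows for 8 of the 10 genes were in the table, and Aldh1a3 and Rdh10 were not. Repeats with 2 or 1 bases between the motifs were in none of the 13 windows, against 0.268% and 0.222% of all windows. TAATTG was in the Cyp26a1 window alone (8.0% of all windows) and CTAATG in none (7.36% of all windows). These matches describe letters in the windows and do not show binding.

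One peak had its whole sequence inside a window of these genes, the replicate 1 peak before the start of Rxra, which holds none of the motifs searched and is 88.1% G and C. It is shown with the bound bases before the start sites of the neighbours Wdr5, in the Rxra window of 500 kb, and Chrnb4, which carried the one shared region near Crabp1. Shorter bound stretches before starts of the neighbours Atf7 (30 bases) and Lins1 (22 bases) held none of the motifs and are not printed. Capitals mark single receptor motifs, in the Wdr5 stretch on the opposite strand.

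Rxra, replicate 1 peak, chr2:27677090-27677190, plus strand: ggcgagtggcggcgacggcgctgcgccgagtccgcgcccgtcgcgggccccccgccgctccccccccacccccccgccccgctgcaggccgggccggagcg

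Wdr5, shared region, chr2:27515007-27515146, plus strand: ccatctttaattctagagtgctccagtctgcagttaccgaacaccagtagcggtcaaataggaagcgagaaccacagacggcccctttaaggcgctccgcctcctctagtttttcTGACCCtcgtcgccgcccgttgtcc

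Chrnb4, shared region, chr9:55048545-55048655, minus strand: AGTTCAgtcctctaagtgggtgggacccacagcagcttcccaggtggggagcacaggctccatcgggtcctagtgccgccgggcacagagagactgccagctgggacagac

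Isl1 regions found in both replicates lay inside all 4 receptor genes of the 10 and inside 1 of the 5 enzyme genes, Aldh1a2, and none lay inside Crabp1. The 2 other receptor genes counted further below held none, and the regions in Rarg and Rxra were each lost under a stricter rule. Peaks of the 2 replicates that overlap by at least 1 bp were joined into a shared region. In all, 5 of the 10 genes had a shared region inside, against 8.32% of all protein-coding genes. All 10 had one within 500 kb, against 78.0%, so that count lay near what most genes show. Assigned regions are those inside a gene, or nearest to it within 100 kb, and 6 of the 10 genes had one, against 14.1%. The median gene length was 31.6 kb for the 10 genes and 17.2 kb for all genes, and the part of length in these counts was not tested. Of the 7 genes with lengths from 20 to 100 kb, 4 held a region, against 7.88% of all genes in that range, and Rarb belongs to the genes of 500 kb or longer, of which 75.7% held one. The 10 genes were named with earlier results of these data known, and no test was made of these counts.

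The windows of the 10 genes did not share regions and together held 47 of the 6834 shared regions (0.688%). Each gene had between 1 and 9 within 500 kb, with a median of 5, against a median of 2 over all genes (quartiles 1 and 4). The order was Rara with 9, Aldh1a3 with 7, Cyp26b1 with 6, Rarg, Aldh1a2 and Rdh10 with 5 each, Rarb and Rxra with 4 each, and Cyp26a1 and Crabp1 with 1 each. Neighbours in this order differed by less than the replicates did at several genes, as the plot of counts by gene shows. The count at Rara was higher than at 96.7% of genes and those at Cyp26a1 and Crabp1 were higher than at 22.0%. Most of the 47 regions were not at the genes themselves: 8 lay inside one of the 10 genes and 2 nearest to one, while 23 lay inside other genes, 12 were nearest to other genes and 2 had no gene within 100 kb. No region fell close to the limit of 500 kb. The farthest inside it was 404 kb from Aldh1a3 (scores 109 and 207 in replicates 1 and 2), and the nearest outside it was 600 kb from Aldh1a2 (scores 113 and 60).

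**Figure D1:**
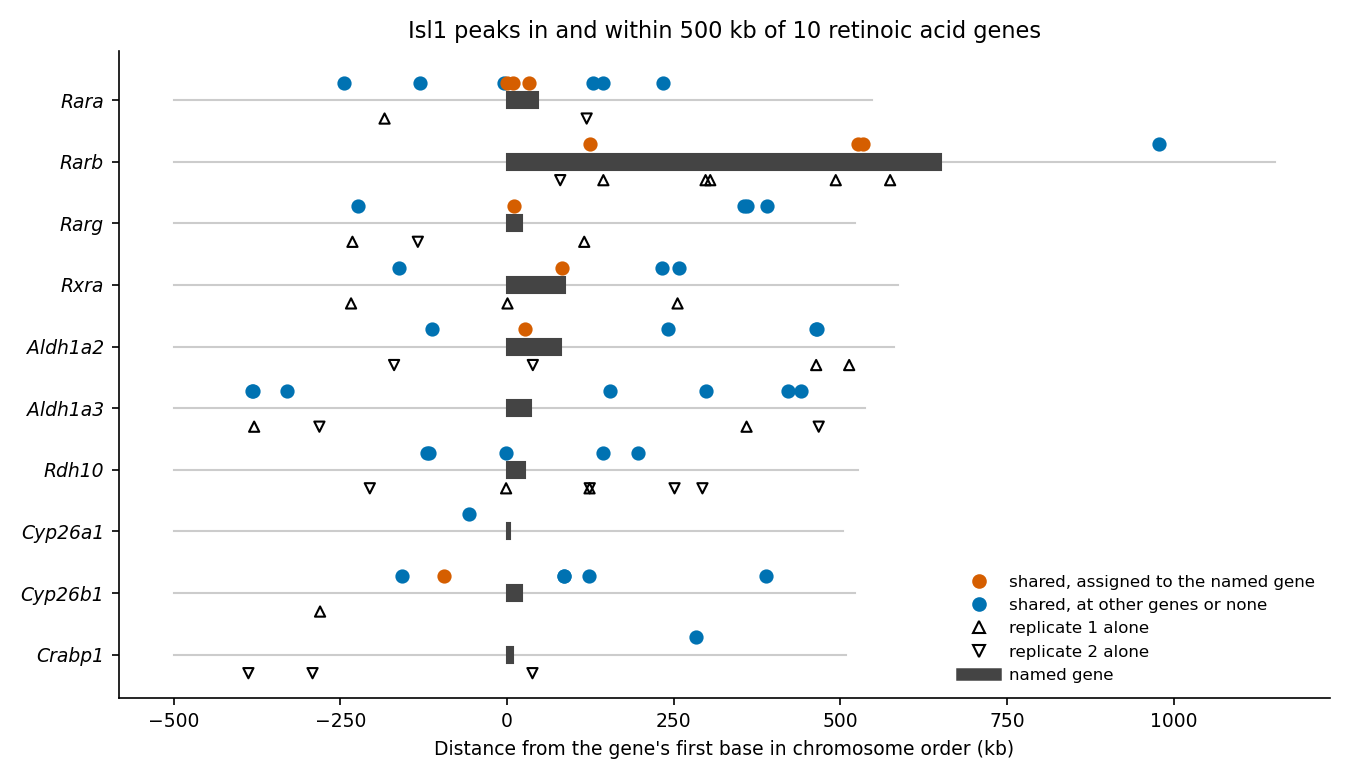
Isl1 peaks around the 10 retinoic acid genes, drawn to scale as distance in kb from each gene's first base in chromosome order, with 1 line per gene and the gene as a dark bar. Filled circles are shared regions (orange where assigned to the named gene, blue elsewhere) and open triangles are peaks of 1 replicate alone; the 10 orange circles lie at 6 genes, and Rarb has 5 triangles of replicate 1 within it.

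Single replicates gave other counts. Replicate 1 had 65 peaks in these windows, of which 47 (72.3%, Wilson 95% interval 60.4 to 81.7%) overlapped a replicate 2 peak, against 78.5% (77.6 to 79.4%) in the rest of that list. Replicate 2 had 61 peaks there, of which 47 (77.0%, 65.1 to 85.8%) were shared, against 68.2% (67.3 to 69.1%) in the rest of its list. The intervals of the rest lie within those of the windows in both lists, and they cover counting error alone. Rarb had 9 peaks in replicate 1 and 5 in replicate 2, and Rxra had 7 and 4. Rdh10 had 7 in replicate 1 and 9 in replicate 2, and Crabp1 had 1 and 4. At Rara (10 and 10), Rarg (7 and 6), Aldh1a2 (7 and 7), Aldh1a3 (9 and 9), Cyp26a1 (1 and 1) and Cyp26b1 (7 and 6) the lists differed by at most 1 peak.

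**Figure D2:**
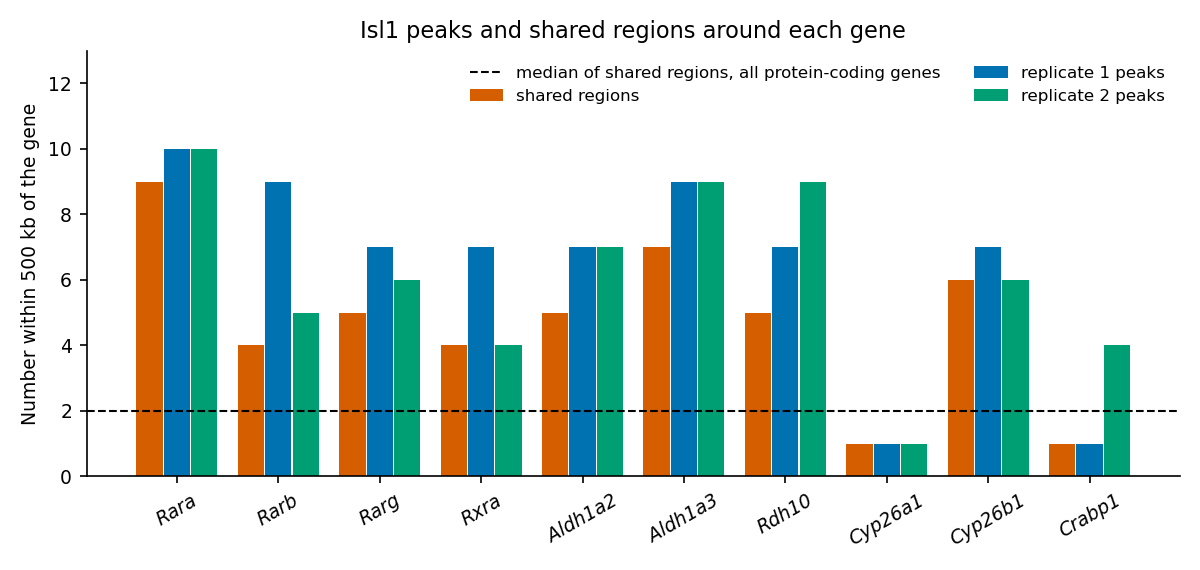
Number of shared regions (orange), replicate 1 peaks (blue) and replicate 2 peaks (green) in or within 500 kb of each gene; the dashed line is the median number of shared regions over all protein-coding genes, 2. Rara and Aldh1a3 are high in both lists, Cyp26a1 and Crabp1 have 1 shared region each, and the lists part most at Rarb.

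The receptors are described first. Rara, the broadly expressed alpha receptor (chr11:98927800-98974942, plus strand), had 3 assigned regions. The strongest lay on the first base of the annotated gene, at chr11:98927699-98927862, with scores of 533 in replicate 1 and 338 in replicate 2. These scores exceeded those of 95.6% and 91.8% of the peaks in their lists. The score is the authors' own value for each peak, its formula is unknown here, and its percentages place a peak within its list. Where scores of the 2 lists are compared or held to the same cut-off, it is not known that they share a scale. The other 2 regions lay inside the gene, at chr11:98936072-98936283 (scores 142 and 90), 1.5 kb before the closest listed start site, and at chr11:98960285-98960419 (scores 115 and 117), 4.52 kb before another. The first exceeded 71.2% and 45.2% of the peaks in the lists of replicates 1 and 2, and the second 62.5% and 59.5%. None of the 4 listed start windows of Rara held a peak of either list, and none of the 13 windows of these genes held a shared region, against 2.81% of all windows. A further region 4.79 kb before Rara lay in Cdc6, a DNA replication licensing gene (scores 153 and 138), and the 5 others of that window lay at Psmd3, Msl1, Igfbp4, Tns4 and Ccr7. Of these, the region at Psmd3, a proteasome subunit gene, had scores of 572 and 253 and that in Msl1, a chromatin gene, 510 and 215.

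Rarb encodes the beta receptor, whose promoter is a classical target of retinoic acid through the direct repeat printed above. It is by far the longest of the 10 genes (chr14:16430839-17082331, minus strand, 651 kb) and held 3 shared regions. The strongest lay at chr14:16957639-16958332 with scores of 215 in replicate 1 and 409 in replicate 2, above 83.0% and 94.2% of the peaks in their lists. Another lay 6.77 kb beyond it at chr14:16965105-16965437 (scores 102 and 168). They lay 382 and 390 kb before the listed start site, inside the longer annotated form of the gene. The remaining region at chr14:16554555-16554896 (scores 66 and 100) lay 20.8 kb past that start site. One more region, at chr14:17408551-17409051 (scores 102 and 103), was 326 kb from the gene, with no gene within 100 kb. In all 3 regions inside Rarb the replicate 2 score was the higher one.

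The replicates parted at the Rarb start site. Replicate 1 had a peak at chr14:16575210-16575452, which began 24 bases after the start site and ended 266 bases after it. Its score of 242 exceeded 85.5% of that list, and of the 1908 replicate 1 peaks that did not overlap a replicate 2 peak, 1 had a higher score. Replicate 2 listed no peak there. Replicate 1 held 4 more unshared peaks inside Rarb with scores from 37 to 60, and replicate 2 held 1 with a score of 51. Rarb thus had 8 peaks inside it in replicate 1 and 4 in replicate 2. A site under the authors' threshold does not appear in a list, so the second list does not show that the start site was unbound.

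Rarg and Rxra had 1 region inside each. In Rarg, the gamma receptor gene of cartilage and skin (chr15:102234938-102257522, minus strand), the region at chr15:102245093-102245272 had scores of 42 and 90, above 10.9% and 45.2% of the peaks in their lists. It lay 1.34 kb after the inner of 2 listed start sites, and it was lost when scores of at least 50 were required. The other 4 regions of the Rarg window lay more than 220 kb away, 3 of them inside Atf7 (the strongest with scores of 316 and 204) and 1 at Krt8. In Rxra, the common partner of the Rar proteins (chr2:27676445-27763319, plus strand), the region lay near the far end of the gene at chr2:27758365-27758660, with scores of 185 and 174, above 79.1% and 76.3% of peaks. The replicate 2 peak was much the wider, and the region was lost when a reciprocal overlap of at least 50% was required. The replicate 1 peak printed above lay 111 to 11 bases before a start site of Rxra, with a score of 102, above 56.4% of its list, and replicate 2 listed none there. The remaining shared regions near Rxra lay at Wdr5 (201 and 156) and inside the collagen gene Col5a1 (206 and 213, and 137 and 408).

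**Figure D3:**
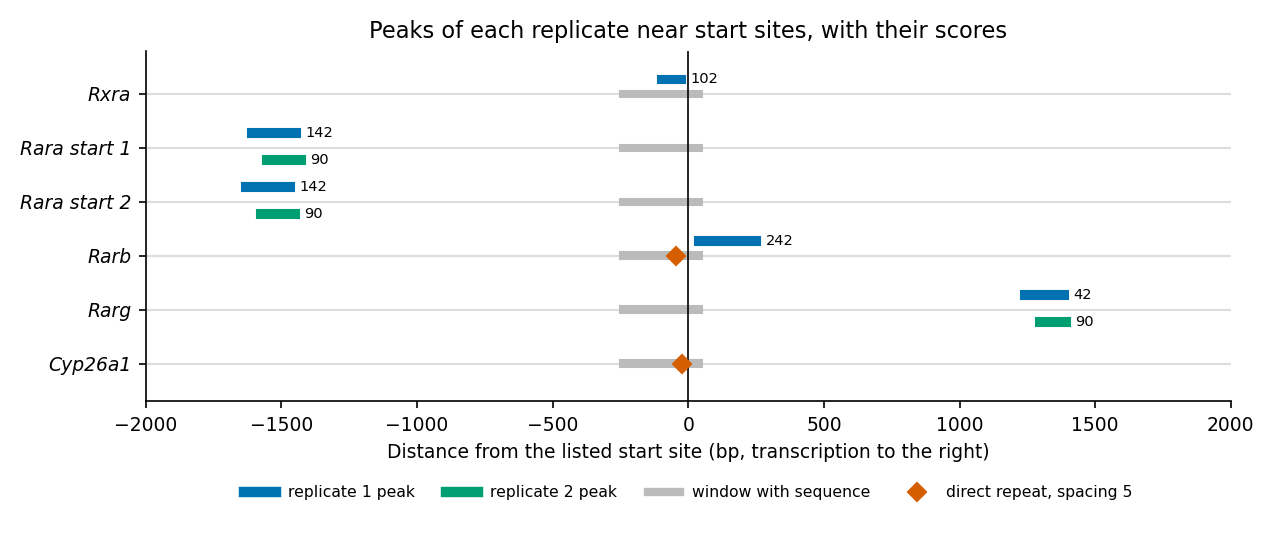
Peaks of replicate 1 (blue) and replicate 2 (green) within 2 kb of listed start sites, in bp along the direction of transcription, with the score beside each peak; the grey bar is the window with known sequence and the diamond a direct repeat of the receptor motif with a spacing of 5. The peaks at the Rarb and Rxra starts are in replicate 1 alone, those at Rara and Rarg are in both replicates and lie over 1 kb from the start, and Cyp26a1 has none. The region on the first base of the Rara gene is not drawn, because that start is not a listed one.

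Among the genes of synthesis, Aldh1a2 and Aldh1a3 encode retinaldehyde dehydrogenases that catalyse the last step, and Rdh10 encodes the retinol dehydrogenase of the step before it. Aldh1a2 (chr9:71215789-71296243, plus strand) held 1 region, at chr9:71242213-71242471, which lay 26.6 kb after the start site. Its scores of 359 in replicate 1 and 429 in replicate 2 exceeded those of 91.8% and 94.6% of the peaks in their lists, and its lower score was the highest of the 10 assigned regions. The next by score (249 and 317) lay 161 kb downstream, nearest to Polr2m. The others lay at Aqp9 and in Cgnl1. Replicate 2 alone had a second peak inside Aldh1a2, with a score of 28, above 1.4% of its list.

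Aldh1a3 (chr7:66390892-66427477) had none of its 7 regions closer than 118 kb. All 7 were in or nearest to other genes: Pcsk6, Snrpa1, Asb7, Lins1 and Cers3. Those in Lins1 (776 and 366) and Snrpa1 (405 and 421) had the highest scores and lay 202 and 151 bp from a gene end. Rdh10 (chr1:16105882-16132550) had 1 region close by, at chr1:16104953-16105082, 862 bp before its lower end in chromosome order and 587 bp from the ribosomal protein gene Rpl7, to which it was assigned. Its scores of 26 and 54 exceeded 1.0% of the peaks in replicate 1 and 17.8% in replicate 2. Replicate 1 alone had a stronger peak 1.39 kb from Rdh10, with a score of 153, which was also assigned to Rpl7. The other 4 regions lay 117 to 170 kb away, 2 of them inside Stau2 (293 and 139, and 41 and 117) and 2 nearest to 4930444P10Rik (157 and 206, and 46 and 91). With scores of at least 50 required, 2 of the 5 regions near Rdh10 were left.

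Of the degrading enzymes, Cyp26b1 had the more regions nearby. Its gene (chr6:84571414-84593908, minus strand) held none, and 1 was assigned to it, 94.2 kb downstream at chr6:84477074-84477358. The scores there were 190 in replicate 1 and 316 in replicate 2, above 80.2% and 90.6% of the peaks in their lists. Another region, 157 kb downstream, had no gene within 100 kb (93 and 156). The 4 others lay upstream, all inside Exoc6b, an exocyst gene that adjoins Cyp26b1. A pair of them stood 74 bp apart at 63.2 and 63.5 kb from Cyp26b1 (26 and 90, and 90 and 118), one lay 100 kb away (61 and 260), and the strongest lay 366 kb away (413 and 389). Cyp26a1 (chr19:37697738-37701536, plus strand), the other degrading enzyme and itself induced by retinoic acid, had 1 region within 500 kb. It lay 56.8 kb upstream at chr19:37640786-37641045 inside Exoc6, with scores of 156 and 98. Cyp26a1 was the one gene of the 10 with no unshared peak in either list.

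Crabp1, which binds retinoic acid in the cytoplasm (chr9:54764748-54773110, plus strand), had its one shared region 275 kb downstream at chr9:55048519-55048655, over the start of the acetylcholine receptor gene Chrnb4, with scores of 206 in replicate 1 and 75 in replicate 2. Replicate 2 alone listed 3 weaker peaks near Crabp1, with scores of 59, 59 and 40, of which the last was assigned to it at 29.8 kb.

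Scores near the 10 genes resembled those of the whole series. The 47 regions had a median score of 115 in replicate 1 (26 to 776) and 127 in replicate 2 (54 to 429), against 107 and 127 over all shared regions. Both scores were at least 300 in 5 of the 47 (10.6%), against 10.8% of all. Of the 47, 29 (61.7%) had the higher score in replicate 2, against 58.9% of all. Replicate scores of the 47 correlated with a Spearman's rho of 0.656, against 0.717 over all 6834, given as descriptions over regions that share 2 libraries. Within 1 kb of a gene end lay 9 of the 47 (19.1%), against 13.6% of all. Of these 9, 1 was nearest to one of the 10 genes, Rara, and another lay 862 bp from Rdh10 but closer to Rpl7. The regions had a median width of 259 bp, against 251 bp. A neighbouring region within 10 kb was present for 15 of the 47 (31.9%), against 21.5% of all.

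**Figure D4:**
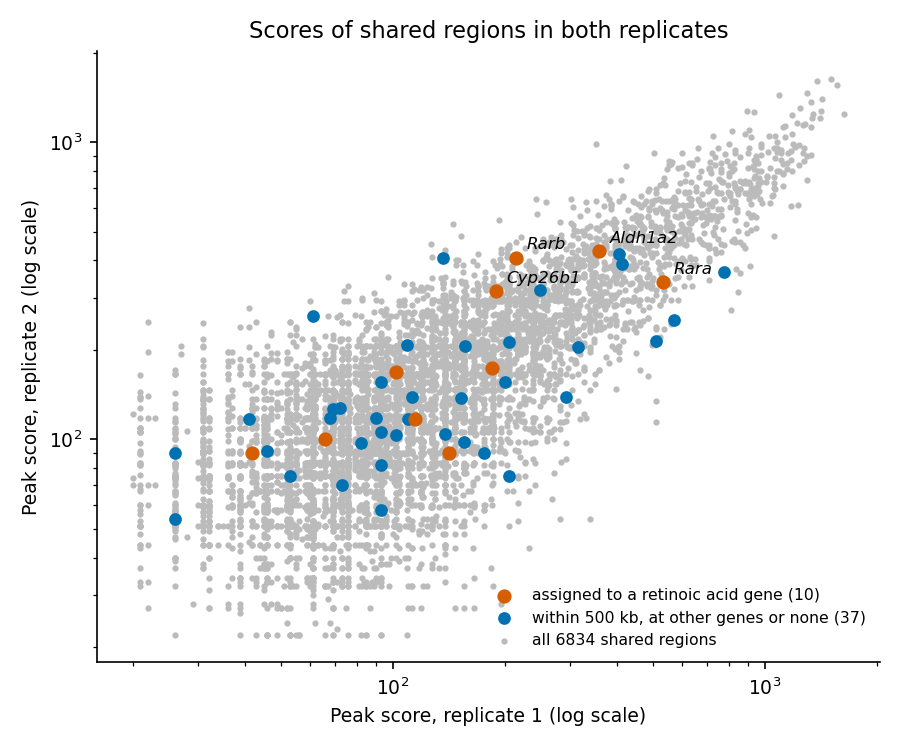
Scores of shared regions in replicate 1 and replicate 2, both on log scales, with the 10 regions assigned to a retinoic acid gene in orange, the 37 others within 500 kb in blue and all 6834 shared regions in grey. The named points are the assigned regions with both scores above 180; the coloured points spread over most of the grey cloud below its upper end.

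Other genes of the pathway were counted in the same way, over a list of 35. At least 1 region was assigned to 9 of the 35 (25.7%), against 14.1% of all protein-coding genes. All 9 were co-regulators or known responders. These roles also hold the longer genes: the co-regulators and responders had a median length of 73.2 kb (18 genes) and the genes of the other roles 17.6 kb (17 genes), and 5 of the 9 genes with an assigned region were over 100 kb, against 3 of the 26 without one. The part of length in this split was not tested. Among genes known to respond to retinoic acid, 6 of 9 had an assigned region, 13 regions in total. Meis1, a homeobox gene of proximal limb identity, had 5, of which 1 lay inside it (263 and 152) and 1 lay 821 bp from it (201 and 229). Nr2f2, an orphan nuclear receptor gene, had 2, one of them inside the gene with scores of 599 and 407. Rarres1 had 3 with low replicate 1 scores (55, 39 and 31) and replicate 2 scores of 117, 117 and 136. Meis2, Nr2f1 and Tgm2 had 1 each.

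Among co-regulators, 3 of 9 had an assigned region, against 14.1% of all protein-coding genes. The co-repressor Rere, which takes part in retinoic acid signalling in mouse embryos, held 3 inside it (105 and 207, 484 and 328, and 282 and 54). The coactivator genes Ncoa1 and Ncoa2 had 1 each, in Ncoa1 inside the gene (120 and 213) and for Ncoa2 53.6 kb away (206 and 352). None was assigned to the other receptors (0 of 2), to genes of retinol uptake and storage (0 of 5), to other genes of synthesis (0 of 7) or to other genes of reduction and degradation (0 of 3). Most protein-coding genes have none either, so the counts of 0 in these small groups are no result about the roles. All 35 genes had at least 1 region within 500 kb, against 78.0% of all protein-coding genes, and 6 of the 35 shared such a region with one of the 10 genes or with each other, as Cyp26c1 did with its neighbour Cyp26a1. The co-regulator Ncor1, the synthetic enzyme Aldh1a1 and the receptor Rxrg were among the genes without an assigned region.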

How the data were processed

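Isl1 ChIP-seq was done on genital tubercle chromatin, and 1 peak list per ChIP sample was used. The lists give a position and a whole-number score per peak, as the authors deposited them, with a lowest score of 20 in both. The submitters' processing notes name Trimmomatic 0.35, Bowtie2 2.2.6, MACS2 2.1.0.20150731, bedtools and build mm10, without roles or settings. Neither the score's formula nor the threshold nor the use of the input is given in the sources used here. Read depth is unknown, so a deeper library could list more weak peaks.

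Gene positions and promoter sequences came from RefSeq tables of GRCm38.p6, whose chromosomes are those of mm10. Analysis used Python 3.11.15 with pandas 2.3.3, numpy 2.4.6 and scipy 1.17.1. A shared region's midpoint is that of its longest overlap. Counting was tested on simulated data. No test compares the genes: 2 lists give no spread between conditions. The 10 genes, the pathway list and the motifs were chosen with earlier results of these data known. One further gene first placed on the pathway list is not reported here, and the list of 35 is without it. All 10 genes and every pathway gene with an assigned region were named, with other genes only where a region lay in or nearest to them. Alternatives changed the overlap, score, window, replicate, midpoint and assignment rules.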

Additional observations from a re-analysis of the deposited data

How the results depend on the processing

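No paired analysis was possible because only the ChIP samples have a file, and the input samples with the same numbers have none. Of 62 summary counts and shares under alternatives, 58 stayed within 1.5 times the reported count, or within the 95% interval of the share, and 4 moved. With both scores at 100 or more, 25 regions in place of 47 lay within 500 kb. They lay at 8 of the 10 genes, and Cyp26a1 and Crabp1 had none. With a window of 100 kb, 18 regions were left at 8 of the 10 genes, and Aldh1a3 and Crabp1 had none. By the nearest gene end, 6 regions in place of 10 were assigned, and none of them to Rarb, since the regions inside it lie far from its ends. Single lists assigned 13 to 16 peaks, and the 8 of Rarb in replicate 1 account for most of the rise. Shared regions lay inside 4 or 5 of the 10 genes in every alternative run: Rarg lost its region when scores of at least 50 or 100 were required and Rxra under reciprocal overlap. Cyp26b1 lost its assigned region with a limit of 10 kb. Of 230 counts at single genes, 42 moved, 11 of them on leaving out a replicate. The bounds by any base of a region were added after the data were seen. Unknown depth limits what a missing peak can show.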

Other observations

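Over the whole table of promoter windows, 923 of 32851 (2.81%) were overlapped by a shared Isl1 region. TAATTG was in 4.66% of the overlapped windows, against 8.0% of all windows, and CTAATG in 4.66%, against 7.36%. All 4 receptor motifs were lower in the overlapped windows too: AGGTCA was in 9.1%, against 16.3% of all windows, and AGTTCA in 10.7%, against 14% of all windows. GGGTCA was in 10.1%, against 13.7%, and the last of them, GGTTCA, was in 8.02%, against 10.4%. The overlapped windows had a median of 61.0% G and C, against 52.7% in all windows, and the part of base composition in these shares was not tested.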
